A study of Rattus norvegicus with 49 samples.

Results

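The kidneys of rats given 500 or 1000 mg/kg of propylene glycol phenyl ether were compared with the kidneys of rats given 1, 10 or 100 mg/kg. The arrays were chosen by the organ and dose in their titles: 7 arrays made up the high side (3 at 500 mg/kg and 4 at 1000 mg/kg) and 12 the low side (4 at each dose), 19 of the 49 arrays of the series. The 5 kidney arrays at 0 mg/kg (corn oil alone) took no part in the comparison and are given beside it as levels. Propylene glycol phenyl ether is a glycol ether solvent.

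All animals were male Harlan Sprague Dawley rats on an NTP-2000 diet, aged 6 to 8 weeks when they were assigned to groups. All were dosed by gavage in corn oil at 5 mL/kg on 5 consecutive days and were killed the day after the last dose, so every rat on both sides had the vehicle and the handling. The compound label of each sample names propylene glycol phenyl ether, whereas the treatment text of the same samples names another agent, MCHM, and the difference could not be settled from the sources used here. Animals at 2000 mg/kg were killed moribund before their last dose and gave no tissue. The series text counts 4 biological replicates at every dose above 0, but 500 mg/kg is represented by 3 kidney arrays here. The labels name the replicates as biological and do not say at what time of day each rat was killed.

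The kidney cleans the blood through tubules whose first segment, the proximal tubule, takes up filtered nutrients and organic acids, burns fatty acids for energy and carries many detoxifying enzymes. Most tubule cells of an adult rat rest, while a small share divides to replace lost cells, so messenger RNAs of the cell cycle are low and come from few cells. Genes for mitosis are switched on late in the cycle through promoter elements bound by the DREAM and MuvB complexes, and genes for DNA replication are switched on earlier through E2F sites. PPAR alpha, a nuclear receptor that senses fatty acids, drives peroxisomal and mitochondrial fatty acid oxidation, and glutathione transferases couple reactive chemicals to glutathione. In tissue homogenates, fewer cells of a type and less RNA per cell cannot be told apart, and this holds for every gene below.

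Each array was an Affymetrix Rat Genome 230 2.0 array with 1 RNA sample, and values are log2 levels, on which a difference of 1 is a factor of 2. The medians of the 19 arrays lay between 6.62 and 6.77, and any 2 of them correlated at 0.990 to 0.996 across genes. Markers of the tubule segments were plainly present in tissue labelled kidney: all 21 measured proximal tubule markers stood above a background reference of 4.80, the 90th percentile of the mean levels of 6 olfactory receptor genes, with a median level of 12.47. All 8 thick ascending limb and all 10 principal cell markers stood above it too. White adipocyte markers set 6 arrays apart. The mean of 11 of them exceeded the median of the 19 arrays by more than 0.5 in replicate 1 at 1 mg/kg (by 1.19), replicates 1, 3 and 4 at 10 mg/kg (0.88, 1.10 and 2.16), replicate 1 at 100 mg/kg (1.20) and replicate 1 at 500 mg/kg (1.72), and in no array at 1000 mg/kg (-0.21 to -0.02). Over the 19 arrays 8 of the 11 markers averaged above the reference.

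Of 14217 genes, 59 (0.415%) passed an adjusted p of 0.05 in limma's moderated test with Benjamini-Hochberg adjustment over all genes: 16 (0.113%) were higher on the high side and 43 (0.302%) lower. Of the 59, 24 differed by at least 1.5-fold, 4 of them higher and 20 lower. At an unadjusted p under 0.05 there were 1279 genes, 615 higher and 664 lower, and the median difference over all genes was 0.00. If no gene differed, a share of about 0.05 of all genes would pass this limit, here and below. When arrays were centred on their medians, 48 genes were called, 19 higher and 29 lower, so the share of higher calls went from 27.1% to 39.6%. The split turned in a test of the brighter 7109 genes alone, where 12 were called higher and 10 lower.

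The number of calls moved with single arrays. Without each of the 4 arrays at 1000 mg/kg (replicates 1 to 4) it was 14, 2, 2 and 9. Without each array at 1 mg/kg it was 23, 29, 23 and 28, and at 10 mg/kg 32, 34, 16 and 26. At 100 mg/kg it was 55, 36, 36 and 67, and at 500 mg/kg 81, 31 and 58, each in replicate order. Sizes moved less: the median size of the difference over the 59 genes stayed between 0.47 and 0.57 in these 19 fits. All 59 kept their direction in each. They were called on these same arrays, so kept directions, here and below, are a description. Ehhadh alone among the 24 genes named by size kept its call in all 19. Without the 6 arrays rich in adipocyte markers, 4 genes were called (Aspm, Cks2, Racgap1 and Zfp367), while the median size of the difference over the 59 genes was 0.53 both with and without these arrays.

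**Figure D1:**
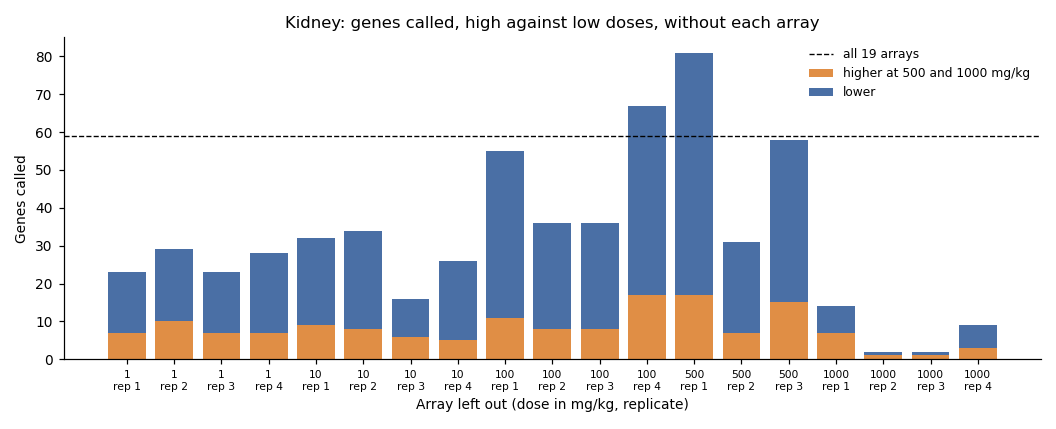
Number of genes called high against low (y axis) when the array named on the x axis by dose and replicate is left out, split into genes higher (orange) and lower (blue) at 500 and 1000 mg/kg, with a dashed line at the 59 called with all 19 arrays. The bars run from 2, without replicate 2 or 3 at 1000 mg/kg, to 81, without replicate 1 at 500 mg/kg.

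Of the 43 falls, 17 were genes that carry a cell through mitosis, 3 were genes of DNA replication and 23 were in neither list. Of 45 measured mitosis genes, 17 fell and none rose, 43 lay below 0, and their median difference was -0.46 against 0.00 over all genes. At an unadjusted p under 0.05 there were 35, all lower. The largest of these falls were in Ccna2, Cdkn3, Prc1, Ccnb2, Cdk1, Kif20a, Top2a, Hmmr, Pbk and Cks2. The list was drawn up with earlier results of these data known, so its direction is not independent evidence.

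Ccna2 encodes cyclin A2, the partner of the CDKs through S phase and into mitosis (probe set 1379582_a_at). Its level was 4.56 to 5.65 on the low side with a median of 5.14, and 3.11 to 5.02 on the high side with a median of 4.03. Of the 7 high arrays 5 lay under every low array, and the sides overlapped through 2 arrays at 500 mg/kg. The mean fell by 1.07 ± 0.19 (SE), or 2.10-fold (limma, adjusted p = 0.0218), but the high mean of 4.05 lay under the background reference of 4.80, so the size of the fall is not settled. The call was lost without any 1 of the 1000 mg/kg arrays, with adjusted p of 0.0503, 0.0773, 0.0522 and 0.0612 in replicate order.

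Prc1 bundles the microtubules of the central spindle at cytokinesis. It ranged from 6.47 to 7.57 (median 7.10) on the low side and from 5.41 to 6.65 (median 6.25) on the high side. Here too 5 of the 7 high arrays lay under all low arrays, and the difference was -0.99 ± 0.17 (limma, adjusted p = 0.0154). Top2a, the topoisomerase that untangles sister chromatids, ranged from 5.33 to 6.16 (median 5.80) against 4.37 to 5.64 (median 4.84). It differed by -0.80 ± 0.14 (limma, adjusted p = 0.0173), with 6 of 7 high arrays under all low ones. Cks2, a small subunit that docks onto CDKs, ranged from 6.83 to 7.59 (median 7.08) against 6.02 to 6.99 (median 6.36). It differed by -0.73 ± 0.12 (limma, adjusted p = 0.0154), again with 6 of 7 under the low range. Prc1 and Cks2 lost their calls without replicate 2 (adjusted p = 0.0537) or replicate 3 (0.0522) at 1000 mg/kg, and Top2a without replicate 2, 3 or 4 (0.0589, 0.0522 and 0.0563).

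Cdk1, the kinase that starts mitosis, stood at 6.19 to 7.38 (median 6.96) on the low side and 5.41 to 6.68 (median 6.09) on the high side. The difference was -0.83 ± 0.18 (limma, adjusted p = 0.0396), with 4 of 7 high arrays under the low range. Its B-type cyclin Ccnb2 fell by 0.93 ± 0.18 (adjusted p = 0.0301), and Cdkn3, a phosphatase that acts on CDKs, fell by 1.00 ± 0.21 (adjusted p = 0.0396). Of the motor and spindle proteins, Kif20a, a kinesin of cytokinesis, fell by 0.80. Hmmr, which helps to organise spindle poles, fell by 0.76 to a high mean of 4.19, under the reference, and its other probe set differed by -0.17 without passing the test (adjusted p = 0.75). The mitotic kinase Pbk fell by 0.74. Of the 19 fits that left out 1 array each, Ccnb2 was called in 14, Cdk1 and Kif20a in 5, Cdkn3 and Pbk in 4 and Hmmr in 3. In the same fits the mean difference of Cdk1 stayed between -0.94 and -0.73.

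Other mitosis genes that fell were the checkpoint kinases Bub1 (-0.63) and Bub1b (-0.36), the cytokinesis regulators Ect2 (-0.65), Kif23 (-0.64) and Racgap1 (-0.57), the spindle protein Spag5 (-0.37) and the ubiquitin-conjugating enzyme Ube2c (-0.55). The proliferation marker Mki67 differed by -0.74, to a high mean of 4.72 under the reference, without passing the test. The transcription factors that switch on late cell cycle genes, Foxm1 (-0.14) and Mybl2 (0.01), and the mitotic kinase Plk1 (-0.15) did not pass it either. The 17 falls of this list became 0 without replicate 2 or replicate 3 at 1000 mg/kg, 3 without replicate 1 and 2 without replicate 4. They became 6, 7, 6 and 6 without each 1 mg/kg array in turn, 7, 10, 4 and 8 without each at 10 mg/kg, 9 without replicate 2 or 3 at 100 mg/kg and 8 without replicate 2 at 500 mg/kg. The other 4 omissions gave 17 to 22. In all these fits the median of the list stayed between -0.51 and -0.40.

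**Figure D2:**
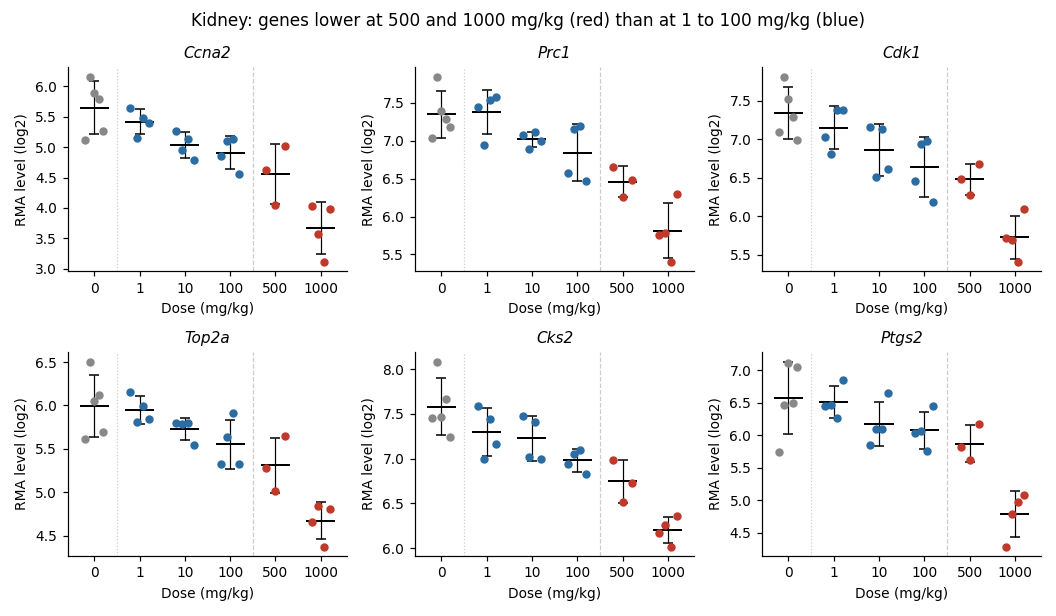
RMA log2 level (y axis) of 6 genes in each kidney array by dose (x axis, mg/kg), with grey points for corn oil alone, blue for the low side and red for the high side, and with bars at the mean ± SD of each dose. The 1000 mg/kg arrays lie under all low arrays for each of the 6 genes, while at least 1 array at 500 mg/kg lies inside the low range for each.

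The promoters of these genes were searched for elements of the kind through which mitosis genes are switched on. An excess over all promoters thus describes this class of genes and is no evidence about these kidneys. The cell cycle homology region, with the letters TTTGAA, was searched together with the CCAAT box on both strands in the 250 bases before the start of each gene, from RefSeq windows on GRCr8. TTTGAA was present in 21 of the 39 mitosis genes with a window (53.8%), 10 of the 13 that fell (76.9%) and 11 of the 26 not called (42.3%). It was present in 34.2% of all falls, 14.3% of the rises, 16.0% of all 27457 promoters and 10.9% of 11734 measured genes. CCAAT was present in 79.5% of the mitosis genes and 34.3% of all promoters, but also in 71.1% of all falls and in 12 of the 14 rises with a window (85.7%). Both together were in 53.8% of the mitosis genes, 34.2% of all falls, 14.3% of the rises and 5.76% of all promoters. The E2F letters TTTGGCG, by contrast, were in 0 of 39 mitosis and 8 of 34 replication promoters (23.5%), against 1.26% of all. These matches describe letters and show neither binding nor a cause. The 120 bases before the start are shown for 4 of the genes described above, because each holds both elements close to its start. They read 5′ to 3′ in the direction of the gene, with each match to either element, on either strand, in capitals. They come from Prc1 on chr1:143659361-143659480 (plus strand), Cks2 on chr17:13727520-13727639 (minus), Top2a on chr10:84473094-84473213 (minus) and Cdk1 on chr20:19265173-19265292 (plus).
Prc1: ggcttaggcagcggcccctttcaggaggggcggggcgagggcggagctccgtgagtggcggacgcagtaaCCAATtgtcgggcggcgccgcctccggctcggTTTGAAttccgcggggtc
Cks2: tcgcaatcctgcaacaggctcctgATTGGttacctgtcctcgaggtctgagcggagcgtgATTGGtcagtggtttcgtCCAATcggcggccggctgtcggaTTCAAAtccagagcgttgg
Top2a: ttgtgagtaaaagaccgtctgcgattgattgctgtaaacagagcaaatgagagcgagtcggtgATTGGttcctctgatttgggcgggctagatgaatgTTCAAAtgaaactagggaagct
Cdk1: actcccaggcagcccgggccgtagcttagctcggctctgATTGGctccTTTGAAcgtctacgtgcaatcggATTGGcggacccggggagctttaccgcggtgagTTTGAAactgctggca
Counting the last base before the start as -1, the element nearest the start begins at -18 in Prc1, -19 in Cks2, -22 in Top2a and -16 in Cdk1. The nearest CCAAT box begins at -50, -42, -57 and -49.

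Of 36 measured genes of DNA replication, 3 fell and none rose, with a median of -0.10 and 32 below 0. Mcm6, a subunit of the replicative helicase, stood at 5.84 to 6.41 (median 6.06) on the low side and 5.50 to 5.86 (median 5.73) on the high side, a difference of -0.39 ± 0.08 (limma, adjusted p = 0.0328). The DNA primase subunit Prim1 differed by -0.32 ± 0.07 (adjusted p = 0.0415). Pcna, the sliding clamp of DNA polymerase, differed by only -0.18 ± 0.04 (adjusted p = 0.0479), from 9.18 to 9.41 down to 9.03 to 9.19, with 6 of 7 high arrays under all low ones. The 3 replication calls dropped to 0 in 5 fits that left out 1 array. The arrays were replicate 1 at 1 mg/kg, replicate 3 at 10 mg/kg and replicates 2, 3 and 4 at 1000 mg/kg. The calls were also 0 with the adipocyte level as a covariate or without the 6 arrays rich in adipocyte markers. For 500 mg/kg alone, or with the clock index described below as a covariate, they were 0 too. They dropped to 1 when arrays were centred or when only brighter genes were tested. They also dropped to 1 without replicate 2, 3 or 4 at 1 mg/kg, 1 or 4 at 10 mg/kg, 1 or 3 at 100 mg/kg, 2 or 3 at 500 mg/kg or 1 at 1000 mg/kg. Of 18 G1 cyclins and CDK inhibitors none was called, with a median of -0.07. Falls outside these lists, picked for their known cell cycle roles after their values were seen, were the replication factor Pclaf (-0.71), the kinetochore subunits Spc25 (-0.68) and Spc24 (-0.48), the spindle pole protein Aspm (-0.61), the cohesin acetyltransferase Esco2 (-0.53) and the replication-linked protease Fam111a (-0.74).

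Zfp367, a zinc finger factor, and Kif18a, a kinesin that dampens chromosome movement, were the 2 genes of 14217 (0.0141%) with all 7 high arrays under all 12 low arrays. Both were chosen for naming after their values were seen. Zfp367 stood at 6.34 to 7.15 on the low side and 5.85 to 6.30 on the high side (-0.58 ± 0.10, limma, adjusted p = 0.0201). Kif18a stood at 3.15 to 3.44 against 2.79 to 3.06 (-0.32 ± 0.05, adjusted p = 0.0154), under the background reference of 4.80 on both sides, so its size is not settled. The same holds for Bub1, Bub1b, Spag5 and Esco2, which lay under the reference on both sides, and for Fam111a and Igsf6, whose high means of 4.10 and 4.74 lay under it. Of the 43 falls, 7 lay under that reference on both sides and 5 on the high side alone, and of the 16 rises 1, Tsga10, did on both sides.

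The other large fall was in Ptgs2, the inducible cyclooxygenase COX-2, which in kidney is made by the macula densa and nearby cells and drives prostaglandin and renin release. Its level was 5.75 to 6.85 (median 6.18) on the low side. At 500 mg/kg the arrays read 5.82, 5.62 and 6.17, and at 1000 mg/kg 4.29, 4.79, 4.98 and 5.08. The 1000 mg/kg arrays lay under the whole low range, and 2 of the 3 arrays at 500 mg/kg lay inside it. High against low it fell by 1.00 ± 0.20 (limma, adjusted p = 0.0356), a 2.00-fold fall that was called in 9 of the 19 fits with 1 array left out. The macula densa list held 11 measured genes, of which Ptgs2 alone was called, and the NF-kB list 25, of which again Ptgs2 alone was. Other falls outside the cell cycle included Apln, a vasodilator peptide (-0.70 ± 0.13, adjusted p = 0.0219), the TGF-beta binding protein Ltbp1 (-0.47), the cold-inducible RNA-binding protein Rbm3 (-0.29), the immune receptor Igsf6 (-0.34) and Nrep, a neuronal regeneration related protein (-0.54).

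Of the 16 rises, 6 were on lists of fatty acid, glutathione, P450 or aldehyde metabolism and 10 on none of these. Ehhadh, the peroxisomal bifunctional enzyme of fatty acid oxidation and a classic PPAR alpha target, had the smallest adjusted p of the 14217 genes (probe set 1368283_at). It stood at 10.02 to 10.38 (median 10.16) on the low side and 10.44 to 10.99 (median 10.54) on the high side. It was the only gene (0.00703%) with all 7 high arrays above all 12 low arrays. The rise was 0.50 ± 0.07, or 1.42-fold (limma, adjusted p = 0.00906), and its adjusted p stayed at 0.00295 to 0.0238 when single arrays were left out. Vnn1, the pantetheinase vanin 1, also a PPAR alpha target, rose from 9.07 to 9.94 (median 9.37) up to 9.54 to 10.34 (median 10.10), by 0.68 ± 0.12 (adjusted p = 0.0154). Its sides overlapped through 1 array at 500 mg/kg, and its call was lost without replicate 2 (adjusted p = 0.0537) or 3 (0.0522) at 1000 mg/kg.

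Of 47 PPAR alpha and fatty acid oxidation genes, Ehhadh and Vnn1 rose and none fell, with a median of 0.06 and 32 above 0. At an unadjusted p under 0.05, 13 were higher and 1 lower. The mitochondrial dienoyl-CoA reductase Decr1 (0.29 ± 0.07, adjusted p = 0.0604) and the thiolase Acaa2 (0.43 ± 0.11, adjusted p = 0.114) came next. Without the 6 arrays rich in adipocyte markers neither Ehhadh (0.53, adjusted p = 0.0634) nor Vnn1 (0.62, adjusted p = 0.174) was called.

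Gstm1, a mu-class glutathione transferase, had the largest rise of the called genes. The low arrays lay between 7.50 and 8.40 with a median of 7.77, and the high arrays between 8.15 and 9.16 with a median of 8.73. Of the 7 high arrays 5 exceeded all low arrays, and replicate 3 at 10 mg/kg, at 8.40, stood highest on the low side. The rise was 0.87 ± 0.14, or 1.82-fold (limma, adjusted p = 0.0154), and it was lost as a call without replicate 2 (0.0537) or 3 (0.0522) at 1000 mg/kg or without the 6 arrays rich in adipocyte markers (0.061). Mu-class genes resemble each other closely, and whether this probe set also reads relatives was not tested. Of 21 glutathione transferases Gstm1 alone was called, 16 lay above 0, and the median was 0.14. Gsta3 (0.44 ± 0.13, adjusted p = 0.198), Gstm2 (0.33 ± 0.10, 0.228) and Gstz1 (0.24 ± 0.07, 0.206) followed. Of 28 NRF2 targets none was called, with a median of 0.02.

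Cyp2e1, the P450 that oxidises ethanol and small solvents, stood at 10.23 to 11.40 (median 10.68) on the low side and 10.85 to 11.79 (median 11.41) on the high side. It rose by 0.64 ± 0.14 (limma, adjusted p = 0.0409). Replicate 2 at 1 mg/kg, at 11.40, stood highest on the low side, just under the lowest 1000 mg/kg array at 11.41, and the call held in 5 of the 19 fits with 1 array left out. It was the only one called of 37 P450 and nuclear receptor target genes (median 0.05). Of 26 alcohol and aldehyde oxidation genes, 2 rose. Aldh1a1, a retinaldehyde dehydrogenase, rose by 0.37 ± 0.08 (adjusted p = 0.0409; 4 of the 19 fits), and the 10-formyltetrahydrofolate dehydrogenase Aldh1l1 rose by 0.22 ± 0.05 (adjusted p = 0.0408).

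The other 10 rises lay outside these lists. Lect2, a secreted protein best known from liver, rose by 0.46 ± 0.09 (adjusted p = 0.0261), from 4.90 to 5.44 up to 5.20 to 5.82. Lrmda, a melanocyte differentiation associated gene, rose by 0.66 ± 0.13 (adjusted p = 0.0375), and Enpp5, an ectonucleotidase relative, by 0.36 ± 0.07 (adjusted p = 0.0219). Adtrp, a fatty acid ester hydrolase, rose by 0.39, Cwh43, a gene of lipid remodelling on GPI anchors, by 0.39, Upb1, the last enzyme of pyrimidine breakdown, by 0.31, and the ciliary gene Ribc1 by 0.28. The smallest rises were Tsga10 (0.28), Tmem205 (0.24) and Apom, a carrier of sphingosine phosphate on lipoproteins (0.21). The calls for Enpp5 and Lect2 each held in 15 of the 19 fits with 1 array left out. Those for Upb1, Cwh43, Lrmda, Adtrp and Ribc1 held in 10, 8, 7, 5 and 3.

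**Figure D3:**
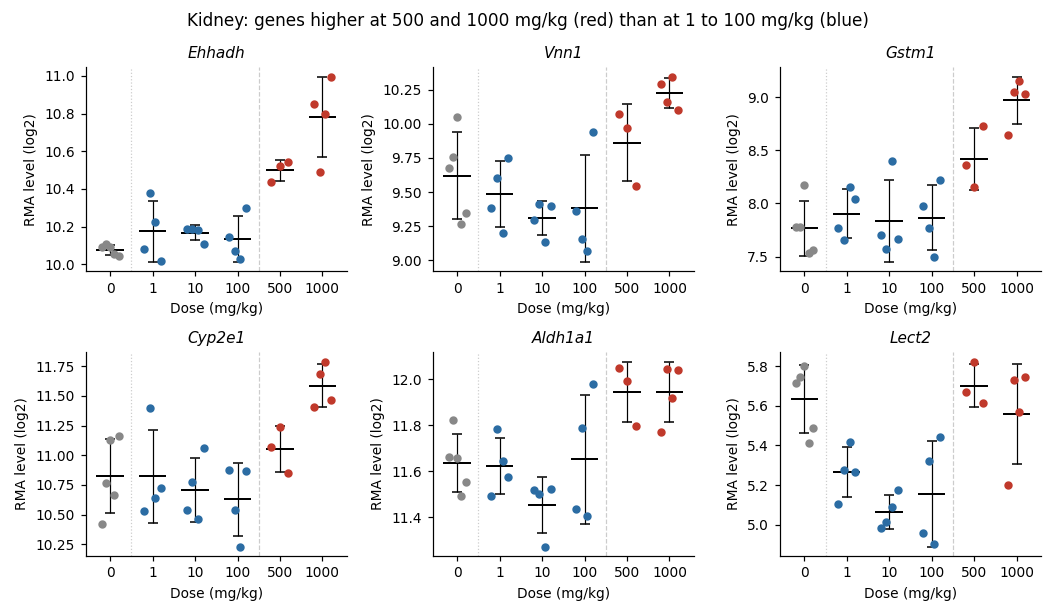
RMA log2 level (y axis) of 6 genes that rose, in each kidney array by dose (x axis, mg/kg), with grey points for corn oil alone, blue for the low side and red for the high side, and with bars at the mean ± SD of each dose. For Ehhadh the red and blue points do not overlap, and for Lect2 the grey points lie as high as the red ones.

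Most other gene groups showed no call. Of 34 extracellular matrix and fibroblast genes none was called, yet 32 lay below 0, with a median of -0.23 and 19 lower at an unadjusted p under 0.05. The matrix proteins Fbn1 (-0.41 ± 0.11, adjusted p = 0.129), Sparc (-0.26 ± 0.07, 0.14), Postn (-0.81 ± 0.22, 0.145) and Dpt (-0.30 ± 0.09, 0.186) had the smallest p of the list. Postn lay under the background reference on both sides (4.44 and 3.62). Of 44 genes of methionine, tyrosine, glycine and urea metabolism none was called, with 38 above 0 and a median of 0.09. No call fell in 28 kidney injury genes (median -0.11), where Tnfrsf12a differed by -0.35 (adjusted p = 0.14) and Lcn2, a damage marker, by -0.26 (adjusted p = 0.547). The lists of tubule segments, podocytes, endothelium, macrophages and lymphocytes held no call either, with medians from -0.12 for 15 macrophage markers to 0.15 for 7 intercalated cell markers. The ribosomal protein, proteasome and respiratory chain lists had medians of 0.01, -0.01 and 0.00.

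**Figure D4:**
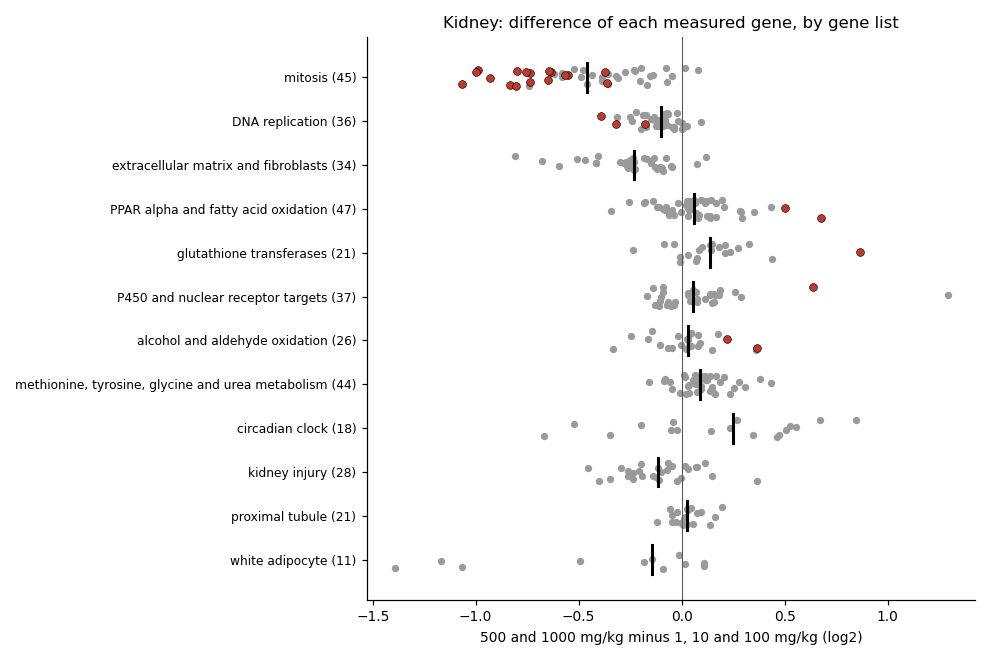
Difference between the high and low sides (x axis, log2) of each measured gene in 12 lists, with the number measured in brackets, red points for genes called and black bars at list medians. The mitosis list holds 17 of the red points, all left of 0, and its median of -0.46 lies farthest from 0.

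The median difference of the 43 falls was -0.34 at 500 mg/kg and -0.74 at 1000 mg/kg, and that of the 16 rises was 0.33 and 0.39. In a fit with 1 mean per dose, 132 genes (0.928%) were called at 1000 mg/kg against the low doses, 31 higher (0.218%) and 101 lower (0.71%). At 500 mg/kg against the low doses limma called 0 genes (0%), with 614 at an unadjusted p under 0.05. Directly between 1000 and 500 mg/kg it called 0 (0%) as well, with 832. Both contrasts use the same low arrays, so they are set side by side only. All 43 falls had a 500 mg/kg mean under the low mean, and all 16 rises one above it. The rule used these arrays, so neither count tests the 500 mg/kg arrays alone.

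Among the genes called at 1000 mg/kg the largest falls were Ptgs2 (-1.47 ± 0.16, adjusted p = 0.0002), Ccna2 (-1.45 ± 0.17, 0.00026), Cdkn3 (-1.27 ± 0.22, 0.00681) and Prc1 (-1.27 ± 0.15, 0.00027). The largest rises among them were Gstm1 (1.11 ± 0.15, adjusted p = 0.00105), Usp2, a deubiquitinase under clock control (1.03 ± 0.20, 0.0135), Cyp2e1 (0.87 ± 0.15, 0.006) and Dmrtc1c1 (0.85 ± 0.13, 0.00296). The means of Ptgs2 (4.78) and Ccna2 (3.67) at this dose lay under the background reference. Larger differences that did not pass the test included, among others, those of Fabp4 (-2.03 ± 0.84, adjusted p = 0.388), Cyp1a1 (2.19 ± 0.54, 0.0625) and the clock output Dbp (1.32 ± 0.35, 0.0916). Ptgs2 and Ccna2 at 500 mg/kg differed by -0.38 and -0.56, Gstm1 by 0.55 and Cyp2e1 by 0.33, none of them called. Of the 45 mitosis genes 28 fell at 1000 mg/kg, with a median of -0.63, and the median at 500 mg/kg was -0.26. The 132 calls became 71, 55 and 42 without replicates 1, 2 and 3 at 1000 mg/kg and 188 without replicate 4, and the 28 mitosis falls became 15 without replicate 3 and 9 without the 6 arrays rich in adipocyte markers. The call for Cdkn3 (adjusted p = 0.059) and that for Cyp2e1 (0.0551) ended without replicate 3. Without the 6 arrays Cdkn3, Cyp2e1 and Usp2 were not called at 1000 mg/kg (adjusted p = 0.119, 0.077 and 0.17).

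Among the low doses themselves limma's F-test called 0 genes (0%), with 410 at an unadjusted p under 0.05. The means of the mitosis genes nonetheless ran downward across them: with rising dose Ccna2 read 5.42, 5.04, 4.91, 4.56 and 3.67. Means fell at every step from 1 to 1000 mg/kg in 27 of the 43 falls and in 239 of all genes (1.68%), and rose at every step in 1 of the 16 rises and in 125 of all genes. The falls were called on these same arrays, so the count of 27 is a description. Without the 100 mg/kg arrays 53 genes were called, 40 of them shared with the 59.

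The corn oil arrays, which took no part in the fit, sat with the low side for nearly all falls. The control mean lay on the low side of the midpoint in 42 of 43 falls, and in 37 it lay beyond the low mean, away from the high side. Over all 14217 genes the control mean lay above the low mean in 8147. The share on the low side of the midpoint was not taken over all genes. Ccna2, for instance, averaged 5.65 ± 0.44 (SD, n = 5) in controls, 5.12 ± 0.31 (n = 12) on the low side and 4.05 ± 0.63 (n = 7) on the high side. Of the 16 rises, 7 had a control mean beyond the low mean, away from the high side, and 12 had one on the low side of the midpoint. Ehhadh, at 10.08 in controls and 10.16 on the low side, and Gstm1, at 7.77 and 7.87, were of this kind. The other 4 had controls on the high side. Lect2 averaged 5.63 in controls, 5.16 on the low side and 5.62 on the high side, and Lrmda 8.44, 7.95 and 8.61, so for these genes the low doses stood apart from both.

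Genes of the circadian clock moved with 3 of the 4 arrays at 1000 mg/kg. None of the 18 measured was called high against low, with a median of 0.25 and 11 at an unadjusted p under 0.05. At 1000 mg/kg Hlf (0.48 ± 0.10, adjusted p = 0.0236), Usp2 (0.0135) and Per3 (0.83 ± 0.19, 0.0467), which are outputs of the clock, rose, Per3 from a low mean of 4.03 that lay under the background reference, and the core activator Bmal1 fell by 1.16 ± 0.23 (0.0184). Bmal1 was picked out after its values were seen. It read 5.15, 4.39, 4.97 and 6.08 in replicates 1 to 4 at 1000 mg/kg, and 6.05, 6.36 and 6.47 at 500 mg/kg, against 5.64 to 6.79 on the low side. Controls also spread widely, from 4.55 to 6.22. A clock index, formed after the data were seen as the mean of Dbp, Tef, Hlf, Per2, Per3, Nr1d2 and Usp2 less that of Bmal1 and Npas2, stood 1.67, 3.14, 2.44 and 0.36 above the low median in these 4 arrays. The 500 mg/kg arrays gave 0.65, 0.10 and -0.18 and the controls 0.10 to 2.80.

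Replicate 4 at 1000 mg/kg, with an index inside the low range of -0.72 to 1.11, had a mitosis list mean of -0.50 relative to the low median, against -0.64, -0.65 and -0.85 in replicates 1 to 3. The lowest of the 12 low arrays stood at -0.40. With the index as a covariate limma called 0 genes high against low, with 756 at an unadjusted p under 0.05, while the mitosis median was -0.38 and all 59 genes kept their direction. The index stood above the low range in replicates 1 to 3 at 1000 mg/kg, so it overlaps with the side being tested. This fit therefore cannot tell index and dose apart. Usp2 lost its call at 1000 mg/kg without replicate 1, 2 or 3 (adjusted p = 0.0519, 0.0954 and 0.108).

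**Figure D5:**
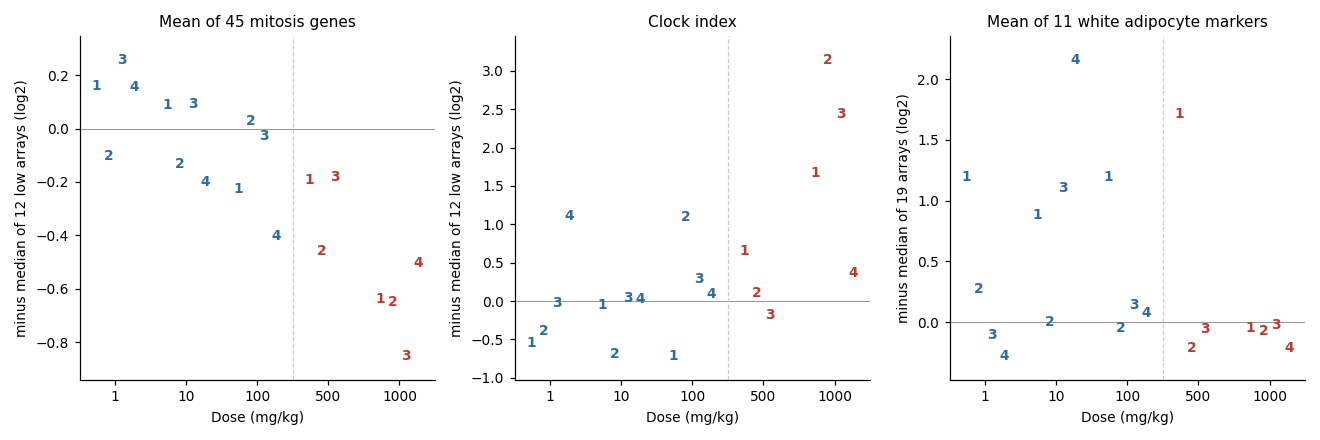
Each of the 19 kidney arrays by dose (x axis, mg/kg), drawn as its replicate number, blue for the low and red for the high side: left, mean of 45 mitosis genes; centre, clock index, both minus the median of the 12 low arrays; right, mean of 11 white adipocyte markers minus the median of the 19 arrays (y axes, log2). The mitosis mean is lowest in the 4 arrays at 1000 mg/kg, the clock index is highest in 3 of them, and the adipocyte markers stand out in 6 arrays, none at 1000 mg/kg.

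None of the 11 white adipocyte markers was called, and their median difference was -0.14. Fabp4, a fatty acid binding protein of fat cells, read 5.54 to 6.88 at 1000 mg/kg and 6.08 to 11.62 on the low side. At 500 mg/kg it read 10.69, 5.88 and 6.68 in replicates 1 to 3. High against low, with both high doses, Fabp4 differed by -1.39 ± 0.72 (limma, adjusted p = 0.595). With the adipocyte level as a covariate 8 genes were called, Cks2, Ehhadh, Gstm1, Kif18a, Prc1, Shcbp1, Top2a and Vnn1, and all 59 kept their direction. Without the 6 arrays the mitosis median was -0.52, against -0.46 with them. At 1000 mg/kg 30 genes were called without these arrays and 69 with the covariate.

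The same contrast in liver (20 arrays, 4 per dose) called 46 genes (0.324%), 26 higher (0.183%) and 20 lower (0.141%). Only Nrep was called in both organs, lower by 0.54 in kidney and by 0.63 in liver. Of the kidney falls 37 of 43 had a negative liver difference, and of the rises 9 of 16 a positive one. Over all genes the median liver difference was 0.00, so all genes divide about evenly around 0, and 9 of 16 is near that share. Of the 43 falls 20 were on the mitosis or replication lists. The 45 mitosis genes had a median liver difference of -0.15, and none was called in liver. Ccna2 differed by -0.72 in liver (adjusted p = 0.54), Prc1 by -0.10, Ehhadh by 0.23 and Gstm1 by 0.17, none of them called. Kidney and liver arrays carry the same doses and replicate numbers, the labels do not say whether they came from the same rats, and the fit treated them as separate samples. The difference between the organs was itself called for 2 genes (0.0141%), with 916 at an unadjusted p under 0.05. Lect2 changed by 0.46 in kidney and -0.08 in liver, a difference of 0.54 ± 0.10 (limma, adjusted p = 0.0498). Abca8a, an ABC lipid transporter, changed by 0.18 in kidney and -0.29 in liver, a difference of 0.47 ± 0.09 (adjusted p = 0.0498). Both stood at the threshold: with the replicate number as a block neither passed (adjusted p = 0.0513 and 0.0624), and across the 39 fits that left out 1 array, Lect2 was called in 15 and Abca8a in 9, and the count ran from 0 to 9 genes. For no mitosis gene was the difference between organs called, which does not show that the organs changed alike.

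Other probe sets of the called genes gave the same direction. Of the 59 genes, 10 had a further probe set, 1 each, and all 10 lay on the same side of 0, 8 of them at an unadjusted p under 0.05. Only that of Racgap1 passed adjustment over all probe sets (limma, adjusted p = 0.0134), and that of H2ax differed by -0.05. Those of H2ax, Hmmr, Lect2, Racgap1 and Shcbp1 lay under the background reference on both sides. All read the same RNA for genes already chosen by their difference, so the shared direction is not independent evidence. Tested over all 31042 probe sets, 42 were called, 7 of them without a single gene symbol, 2 higher and 5 lower.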

How the data were processed

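Total RNA of kidney and liver was hybridised to Affymetrix Rat Genome 230 2.0 arrays, 1 sample per array, as the labels' protocols state. The authors deposited log2 levels per probe set, made with RMA per the submitters' processing notes. Its version, and whether the organs were normalised together, are not given in the sources used here. RMA equalises array distributions and can hide a shift common to most genes. Detection calls were not used here. Of 31099 probe sets, 57 were controls, 20826 had 1 gene symbol, 436 several and 9780 none. The brightest probe set over 49 arrays stood for each of 14217 genes.

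The difference between 7 high and 12 low arrays was fitted with limma 3.58.1 in R 4.3.3 (lmFit, eBayes, no covariate) with Benjamini-Hochberg adjustment and a threshold of 0.05. Another fit had 1 mean per dose, and another 1 mean per organ and side over 39 arrays. On simulated data this test called 64% of 1.25-fold, 96% of 1.5-fold and 98% of 2-fold changes high against low, and 6 of 14017 unchanged genes. For 500 mg/kg against low, in the fit with 1 mean per dose, the shares were 42%, 84% and 98%, with 12 unchanged genes called. The simulation drew independent noise for each gene, without array-wide shifts or differences between the doses of a side. Its rates therefore do not cover such shifts in the real arrays. Precision is limited by how many arrays each dose has. P-values set a difference against the spread between these arrays. In the fit of high against low this spread includes differences between the doses of a side.

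Genes were named by rule: the 12 largest rises and falls among called genes, the 4 largest each way at 1000 mg/kg and between organs, and up to 4 members with the smallest p per list. Members, lists and tests were chosen with earlier results of these data known. Alternatives changed the probe set rule, normalisation, variance model, covariates, doses on each side and arrays included. Promoter windows came from RefSeq (GRCr8).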

Additional observations from a re-analysis of the deposited data

Results flagged for a closer look

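Within a dose group of 4 or 5 arrays, 10 of 135 combinations of gene and dose held 1 array far from the others by Dixon's test. Chance marks about 1 in 20 such groups. Replicate 3 at 10 mg/kg stood out for 3 genes: Gstm1 at 8.40, above 7.57 to 7.70 in the other arrays of its dose; Lrmda at 8.31, above 7.68 to 7.78; and Aldh1a1 at 11.27, under 11.50 to 11.53. Replicate 4 at 10 mg/kg was low for Ehhadh (10.11) and for Top2a (5.54). At 1000 mg/kg, replicate 3 was lowest for Cdkn3 (4.68, the others 5.50 to 5.53) and replicate 1 lowest for Cwh43 (6.62). Among the corn oil arrays, Adtrp read 9.11 in replicate 3, Enpp5 10.67 in replicate 2 and Ccnb2 6.34 in replicate 5.

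The kidney and liver changes differed for Lect2 by 0.54 (limma, adjusted p = 0.0498), with liver at -0.08, and for Abca8a by 0.47 (adjusted p = 0.0498), with liver at -0.29. With the replicate block neither difference passed (adjusted p = 0.0513 and 0.0624). With the mean of all probe sets per gene they did not pass either (0.126 and 0.0884).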

How the results depend on the processing

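High against low, 59 genes were called, 17 of them mitosis genes that fell. The counts were 22 and 3 when only brighter genes were tested, 8 and 3 with the adipocyte level as a covariate, 4 and 2 without the 6 arrays rich in adipocyte markers, 120 and 28 with corn oil arrays on the low side, 141 and 27 for 1000 mg/kg alone, 0 and 0 for 500 mg/kg alone (664 genes at an unadjusted p under 0.05) and 0 and 0 with the clock index, a covariate chosen after the data were seen. The clock index overlaps with the side being tested, so that fit cannot tell index and dose apart. With dose as a random block 102 genes were called. The correlation fitted between arrays of 1 dose was -0.06. A value under 0 makes no allowance for likeness among arrays of 1 dose, so this count is no stronger result. The brighter set tests fewer genes, with 5 of the 45 mitosis genes in it; for the other settings the cause was not tested. Leaving out 1 array gave 2 to 81 genes and 0 to 22 mitosis genes. For 1000 mg/kg against low (132 genes) the counts were 85 with brighter genes, 69 with the adipocyte covariate, 30 without the 6 arrays and 42 to 188 with 1 array left out. Between 1000 and 500 mg/kg (0) it was 1 with the replicate block and 0 to 4 with 1 array left out. For kidney minus liver (2) it was 0 with all probe sets averaged, 11 with brighter genes, 5 with a variance trend, 0 with the replicate block and 0 to 9 with 1 array left out. At 500 mg/kg and among the low doses every alternative run gave 0. The replicate numbers were not taken to pair arrays. To look at this, the dose mean of each gene was subtracted, and these deviations were correlated between arrays of different doses. The 36 pairs of arrays with the same number correlated at -0.20 to 0.31 (median 0.10), 19 of them over 0.1. The 108 pairs with different numbers correlated at -0.36 to 0.36 (median -0.03), and 7 of 19 arrays matched their own number best. Replicate 1 at 1, 10, 100 and 500 mg/kg also stood among the 6 arrays rich in adipocyte markers. Whether the number marks a shared batch was not tested. With the replicate as a block 55 genes were called high against low, 46 shared with the 59. Of 1195 values of named genes under alternatives none changed sign, and 397 lost the call. The genes were named for their calls on the same arrays, so the kept signs are a description.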

Other observations

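Cyp1a1, the P450 induced through the aryl hydrocarbon receptor, had the largest positive difference of the 14217 genes, 1.29 ± 0.51, without passing the test (limma, adjusted p = 0.40). At 1000 mg/kg it read 9.38, 10.33, 10.74 and 8.54, and on the low side 5.61 to 9.06. The corn oil arrays, however, read 8.76, 6.59, 5.29, 8.12 and 9.38, so they spanned as wide a range as the low side.

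Of 5 measured red blood cell genes none was called, and 4 lay below 0, with a median difference of -0.24. The globins Hba-a3 and Hbb differed by -0.36 ± 0.10 (limma, adjusted p = 0.159) and -0.34 ± 0.10 (0.173), and the erythroid heme enzyme Alas2 by -0.24 ± 0.09 (0.344). Ahsp, which stabilises alpha globin, and Epb42, a red cell membrane protein, stood at -0.01 and 0.02. The mean of the 5 genes, relative to the low median, was -0.12 in corn oil arrays, -0.14 at 500 mg/kg and -0.21 at 1000 mg/kg. Among 22 interferon response genes 19 lay below 0 and none was called, with Ifit2 at -0.25 (adjusted p = 0.192). Relative to the low median, the mean of these 22 genes was -0.18 in corn oil arrays, -0.17 at 500 mg/kg and -0.12 at 1000 mg/kg. The high side thus did not lie under the controls. The intercalated cell genes Rhcg, an ammonia transporter, and Atp6v1g3, a proton pump subunit, lay higher by 0.20 and 0.19 (adjusted p = 0.33 and 0.332).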
